A study of Mus musculus with 12 samples.

Results

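The onset of cortical neurogenesis was examined in the Ebf2-EGFP negative cells of the mouse embryonic cerebral cortex by comparing E13.5 with E11.5. They gave 4 of the 12 bulk RNA-seq libraries of the series, 2 at each of these stages, chosen by stage and by the negative gate alone. All groups carried the same transgene, Tg(Ebf2-EGFP)FB58Gsat, a bacterial artificial chromosome in which Ebf2 regulatory sequence drives EGFP, so the negative cells are transgenic cells that were sorted for the lack of the reporter. Ebf2-EGFP labels early-born preplate and Cajal-Retzius neurons, and the negative gate therefore holds the other cells of the dissected and dissociated tissue, with no marker that selects a cell type within it. The study's methods give this tissue as cortical regions, while its results speak of the forebrain. The reporter is maintained in Cajal-Retzius neurons but is fading from subplate neurons by E13.5, so cells of the preplate that have lost it can enter the negative gate at that stage. Each library was made from pooled embryos, from several litters according to the study's methods, and RNA was captured on oligo-dT beads. Sorted Ebf2-EGFP positive cells of the same 2 stages, 4 further libraries, were used to ask whether a change differed between the populations. Their levels were also set beside those of the negative cells, and they entered an alternative fit of all 12 libraries.

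Cortical neurons arise from radial glia, the apical progenitors that line the ventricle, either directly or through intermediate progenitors in the subventricular zone. The proneural factor Neurog2 switches on Eomes, which marks intermediate progenitors, and then Neurod1, Neurod2, Neurod6 and Tbr1 as postmitotic glutamatergic neurons settle in the cortical plate. In the mouse, E11.5 falls at the time of the preplate and E13.5 at the time when deep-layer neurons form the cortical plate.

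Expression was deposited as FPKM, fragments per kilobase of transcript scaled to mapped fragments, for 4859 coding genes and 200 lncRNA transcripts. Both tables list features that the study reported as differential between populations, so every count here is a count within that list. Changes are given as E13.5 minus E11.5 on the log2(FPKM + 1) scale ± the standard error (SE) of the limma fit, with Benjamini-Hochberg adjusted p-values over the whole table, and a gene was said to rise or fall when that value was under 0.05. Of the coding genes 2859 (58.8%) passed, with 1253 (25.8%) higher and 1606 (33.1%) lower at E13.5, and the median change over all 4859 genes was -0.14. Scaling by medians of ratios moved that median to -0.022 and turned the split to 1476 higher and 1284 lower, so directions near 0 depend on the scaling. Among the called genes, 537 were at least 2-fold higher and 563 at least 2-fold lower. Replicates correlated across genes at r = 0.989 at E11.5 and 0.982 at E13.5, against 0.823 to 0.881 between stages. The E13.5 replicates stood apart from each other more than those of E11.5 did, with a median absolute difference of 0.246 against 0.142, and replicate 2 lay further from E11.5 (r of 0.823 and 0.832) than replicate 1 (0.875 and 0.881). Depth is not known from FPKM, and no counting error was computed. The libraries are bulk samples, so fewer cells of a type and less RNA per cell cannot be told apart. The 2 libraries of a stage are separate preparations of sorted cells from pooled embryos. The p-values rest on the spread between these preparations, which limma moderates towards a trend over all features of a table. The SE of a gene therefore draws on the spread of other genes as well as on its own libraries.

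**Figure D1:**
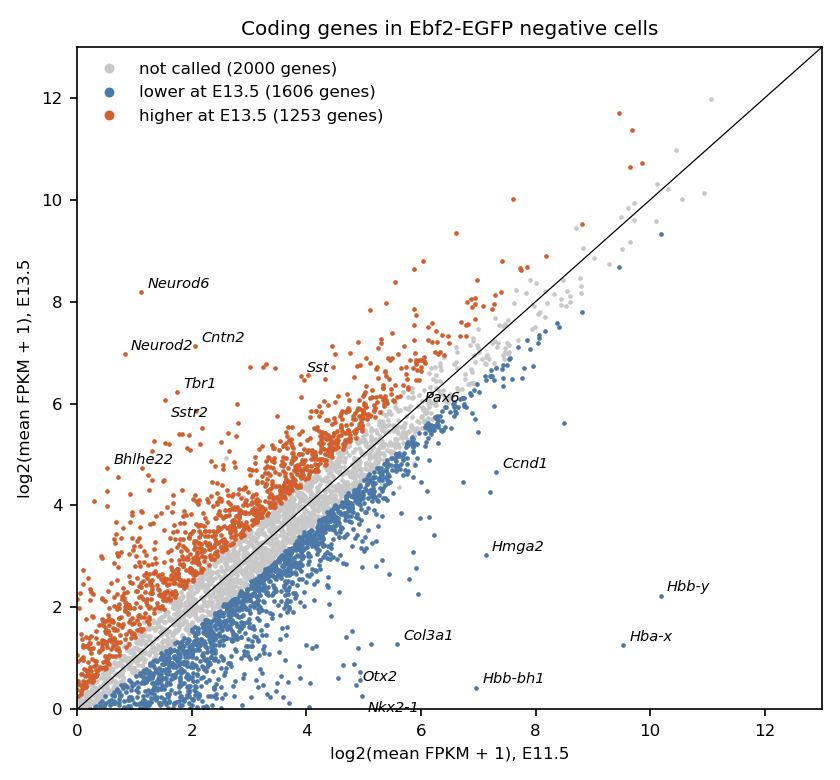
Each point is 1 of 4859 coding genes, with the log2 of mean FPKM + 1 at E11.5 on the x axis and at E13.5 on the y axis (means of 2 libraries, diagonal line of equality), coloured by the limma call. The 1253 genes called higher include Neurod2 and Neurod6 at the upper left, and the 1606 called lower include embryonic globin genes at the lower right.

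The 4 genes that mark the onset of neurogenesis in this population rose together. Tbr1 (chr2:61802930-61814114, GRCm38), a T-box factor of early-born deep-layer neurons, was at 2.49 and 2.17 FPKM at E11.5 and at 66.1 and 81.7 FPKM at E13.5. Neurod1 (chr2:79452521-79456751), a basic helix-loop-helix (bHLH) factor of newborn neurons, was at 1.56 and 2.23 FPKM at E11.5 and at 36.5 and 36.3 FPKM at E13.5. Eomes (chr9:118478212-118486132), the T-box factor of intermediate progenitors, was at 8.08 and 11.7 FPKM at E11.5 and at 110.1 and 96.0 FPKM at E13.5. Every E13.5 library was above every E11.5 library for these genes, and the changes were 4.49 ± 0.20 for Tbr1 (adjusted p = 1.92e-07), 3.70 ± 0.21 for Neurod1 (adjusted p = 5.55e-07) and 3.28 ± 0.21 for Eomes (adjusted p = 1.45e-06). Plxna4 (chr6:32144268-32588192), a semaphorin co-receptor of growing axons, was at 1.51 and 1.45 FPKM at E11.5 and at 28.6 and 36.5 FPKM at E13.5 (3.75 ± 0.21, adjusted p = 5.55e-07). It was below Tbr1 in each of the 4 libraries.

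The cortical label of the cells was checked against genes of the dorsal telencephalon. Emx1, a factor of this region, was at 39.8 and 41.0 FPKM at E11.5 and at 109 and 86.2 FPKM at E13.5 and rose (1.24 ± 0.20, adjusted p = 0.000453), while Emx2, which is graded across the cortical primordium, fell by 0.71 on the log2 scale (SE 0.24, adjusted p = 0.0267). The call for Emx1 was kept without any 1 library. Genes of the ventral telencephalon, choroid plexus and meninges, such as Nkx2-1, Otx2 and Col3a1, were also present at E11.5 and low at E13.5, as given below. The tissue dissected may have differed between the stages, and this cannot be told apart from a change with stage. Ebf2 itself was at 1.17 and 0.952 FPKM at E11.5 and at 1.53 and 1.05 FPKM at E13.5, and these libraries overlapped (0.15 ± 0.15, adjusted p = 0.416). The change of Ebf2 was -0.006 without E13.5 replicate 1. In the positive cells Ebf2 was at 61.2 and 49.1 FPKM at E11.5 and at 6.67 and 4.32 FPKM at E13.5, above every negative library.

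**Figure D2:**
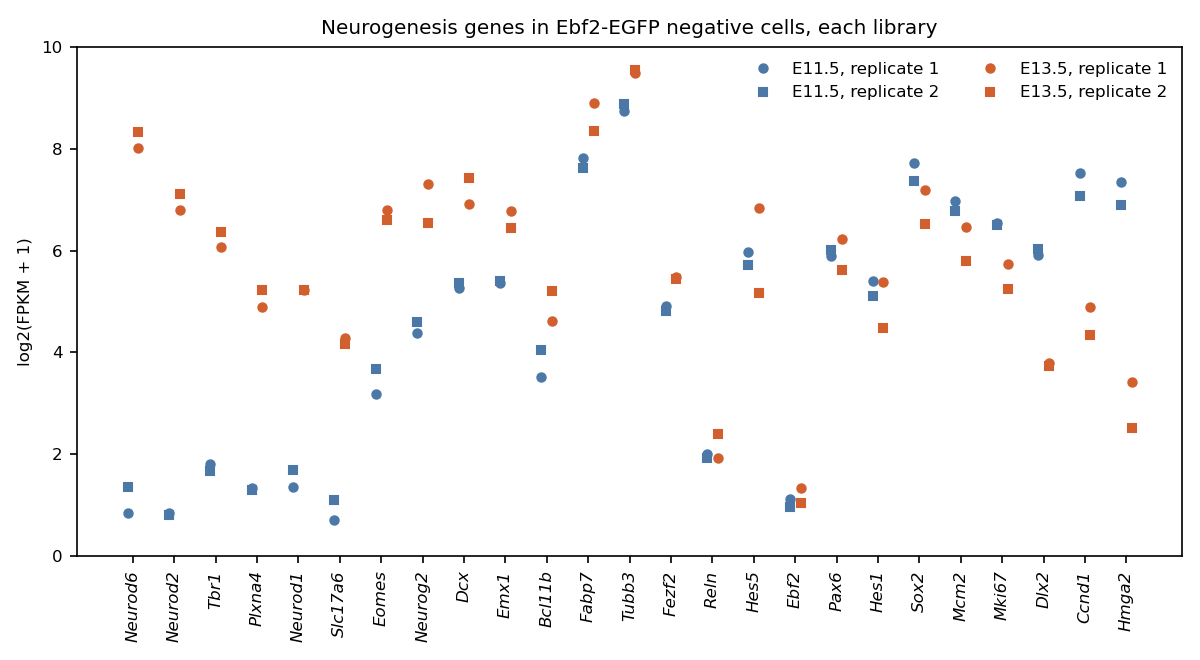
Of the 27 neurogenesis genes 25, ordered by their change, are plotted as log2(FPKM + 1) in each of the 4 Ebf2-EGFP negative libraries (colour for stage, shape for replicate). Neurod6, Neurod2 and Tbr1 separate the stages most, Pax6, Hes1, Hes5, Ebf2 and Reln overlap between stages, and Hmga2 shows the largest fall.

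The neurogenic cascade from progenitor to neuron moved mostly upward. All 25 of its listed genes were in the table, and 19 rose, 2 fell and 4 did not pass, with a median change of 1.66 against -0.14 over all genes. Neurod6 (chr6:55677822-55681263), a bHLH factor of postmitotic pyramidal neurons, was at 0.779 and 1.54 FPKM at E11.5 and at 257 and 322 FPKM at E13.5 (7.09 ± 0.22, adjusted p = 2.11e-08). Neurod2 (chr11:98325415-98329648), its close relative, was at 0.795 and 0.747 FPKM at E11.5 and at 110.5 and 137 FPKM at E13.5 (6.13 ± 0.20, adjusted p = 2.11e-08). These were the 2 largest rises of the whole table, from levels around 1 FPKM in the E11.5 libraries to over 100 FPKM in those of E13.5. Neurog2, the proneural factor upstream of them, was at 19.9 and 23.1 FPKM at E11.5 and at 158 and 91.7 FPKM at E13.5 (2.43 ± 0.25, adjusted p = 2.44e-05). It was already well above 1 FPKM at E11.5, and the E13.5 replicates differed more than the E11.5 replicates did. Sstr2, a somatostatin receptor listed here with intermediate progenitors, was at 1.41 and 2.38 FPKM at E11.5 and at 64.8 and 67.5 FPKM at E13.5 (4.56 ± 0.22, adjusted p = 2.56e-07). Nhlh1 and Rnd2, genes of newborn migrating neurons, rose by 3.59 and 2.84. Chd7, a chromatin remodeller, fell (-0.81 ± 0.19, adjusted p = 0.00425). The Notch ligand genes Dll1 and Dll3 had changes of 0.34 and 0.28 and did not pass. The call for Chd7 was lost without E11.5 replicate 2 (-0.78, adjusted p = 0.0578). The cascade counts were nearly the same without any 1 library, with 18 to 21 genes higher and 1 to 2 lower.

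The promoter of Neurod2 is shown because its gene had the second largest rise and because this window holds a match to CAGATG, the E-box form used by proneural bHLH factors. These are the 250 bases before the RefSeq start of Neurod2, on the minus strand at chr11:98329646-98329895 (GRCm38.p6), read 5′ to 3′ in the direction of transcription, with the match, which begins 118 bases before the start, in capitals.
Neurod2: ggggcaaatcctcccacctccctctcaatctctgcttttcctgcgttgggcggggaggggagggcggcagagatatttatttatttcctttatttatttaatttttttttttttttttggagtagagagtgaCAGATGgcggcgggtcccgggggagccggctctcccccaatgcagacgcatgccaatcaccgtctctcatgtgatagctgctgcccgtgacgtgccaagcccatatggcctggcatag
Searched on both strands, CAGATG occurred in 11.7% of the 5038 promoters matched to genes of the table and in 17.2% of all 32851 RefSeq promoters (250 bases before to 50 after a start), so a match is common in any promoter. Promoters were found for 3768 of the 4859 genes (77.5%), under 80%, and the comparison of motif shares between rising and falling genes is therefore void and not given.

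Transcription factors of the cortical plate followed. Of 34 listed genes 32 were in the table, and 18 rose, 4 fell and 10 did not pass (median 0.68 against -0.14 over all genes). Bhlhe22, a bHLH factor of postmitotic cortical neurons, was at 0.405 and 0.460 FPKM at E11.5 and at 24.2 and 26.8 FPKM at E13.5 (4.21 ± 0.20, adjusted p = 2.61e-07). Zbtb18, a zinc finger repressor needed for cortical neuron differentiation, was at 31.9 and 35.4 FPKM at E11.5 and at 199.6 and 258 FPKM at E13.5 (2.72 ± 0.21, adjusted p = 3.38e-06). Both were higher in each E13.5 library than in each E11.5 library. The nuclear factor I genes Nfib, Nfix and Nfia rose by 2.67, 2.49 and 1.80. Among factors of projection neuron identity, Bcl11b, a factor of subcerebral neurons, was at 10.4 and 15.6 FPKM at E11.5 and at 23.4 and 36.0 FPKM at E13.5 (1.13 ± 0.25, adjusted p = 0.00353). Fezf2, which acts upstream of Bcl11b and is also made by early progenitors, was at 29.1 and 27.1 FPKM at E11.5 and at 43.6 and 42.3 FPKM at E13.5 (0.60 ± 0.18, adjusted p = 0.0167). Both rose, and Fezf2 was already near 30 FPKM at E11.5. Tle4, a corepressor of later corticothalamic neurons, was at 26.3 and 24.0 FPKM at E11.5 and at 10.2 and 9.58 FPKM at E13.5 and fell (-1.27 ± 0.19, adjusted p = 0.000275). Crym and Etv1, also markers of later layer neurons, fell by 1.10 and 0.83, and Foxp2 fell by 0.57. The call for Fezf2 was lost without either E11.5 replicate (0.65 and 0.55, adjusted p = 0.127 and 0.185) and in the fits of all 12 and of the 6 negative libraries (adjusted p = 0.203 and 0.220), and that for Etv1 was lost without either E11.5 replicate (adjusted p = 0.0739 and 0.0548). Without E11.5 replicate 1 the list had 14 genes higher and 2 lower, and without E11.5 replicate 2 it had 16 and 2.

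Genes of the neuronal cytoskeleton and of pan-neuronal identity mostly rose. Of 37 genes 34 were in the table, and 23 rose, 1 fell and 10 did not pass (median 0.78). Dcx, a microtubule protein of migrating neurons, was at 37.3 and 39.9 FPKM at E11.5 and at 120.0 and 170.4 FPKM at E13.5 (1.86 ± 0.22, adjusted p = 5.45e-05). Tubb3, the neuronal beta-tubulin, was at 429.5 and 467 FPKM at E11.5 and at 718 and 752 FPKM at E13.5 (0.71 ± 0.27, adjusted p = 0.0427). Both were higher in each E13.5 library, and at E11.5 they already stood at 37 FPKM or more. Nsg2, an endosomal protein of neurons, was at 56.1 and 72.5 FPKM at E11.5 and at 406 and 485 FPKM at E13.5 (2.78 ± 0.23, adjusted p = 5.69e-06), and Rtn1, a reticulon of neuronal endoplasmic reticulum, rose by 1.81 (SE 0.20). Mapt, Elavl2 and Crmp1 rose by 1.74, 1.47 and 1.19. Nefl, the light neurofilament chain, fell from 5.46 and 5.45 FPKM to 1.75 and 1.45 FPKM (-1.32 ± 0.19, adjusted p = 0.000217), and Stmn4, Map1a and Map1b had changes of 0.00, -0.14 and -0.16 and did not pass. The call for Tubb3 was lost without E11.5 replicate 1 (0.65, adjusted p = 0.361), E11.5 replicate 2 (0.77, adjusted p = 0.260) or E13.5 replicate 2 (0.68, adjusted p = 0.0593). The count of 23 fell to 13 without E11.5 replicate 1 and to 12 without E11.5 replicate 2.

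Axon guidance and adhesion genes rose more often than they fell. Of 59 genes 54 were in the table, and 31 rose, 14 fell and 9 did not pass (median 0.80). The shares over all coding genes were 25.8% higher and 33.1% lower, and the count of falling genes did not stand above its share. Cntn2, an adhesion protein of the axons of early cortical neurons, was at 3.10 and 3.20 FPKM at E11.5 and at 92.8 and 186 FPKM at E13.5 (4.99 ± 0.28, adjusted p = 5.55e-07). Sema6d, a transmembrane semaphorin, was at 3.33 and 3.51 FPKM at E11.5 and at 30.2 and 41.9 FPKM at E13.5 (3.05 ± 0.21, adjusted p = 2.11e-06). Cntn2 was higher at E13.5 in both libraries, although the E13.5 libraries differed more from each other than those of E11.5 did. Among receptors, Epha5, Unc5d, Nrp1 and Robo2 rose by 2.73, 2.73, 2.36 and 1.83, and L1cam and Chl1, adhesion proteins of growing axons, by 1.92 and 2.30. Ntn1, the secreted guidance cue netrin, was at 20.1 and 13.8 FPKM at E11.5 and at 1.64 and 1.06 FPKM at E13.5 and fell (-2.92 ± 0.24, adjusted p = 5.64e-06). Efna5 and Unc5b, an ephrin and a netrin receptor, fell by 2.25 and 1.74. Of the Slit genes, whose products repel axons, Slit1 rose by 1.05 while Slit2 and Slit3 fell by 0.94 and 1.01.

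Genes of synaptic vesicles and transmitter receptors mostly rose. Of 56 genes 50 were in the table, and 38 rose, 2 fell and 10 did not pass (median 0.91). Slc17a6 and Slc17a7 encode the vesicular glutamate transporters. Slc17a6 was at 0.622 and 1.15 FPKM at E11.5 and at 18.4 and 16.9 FPKM at E13.5 (3.32 ± 0.22, adjusted p = 1.65e-06). Slc17a7, which predominates in the mature cortex, was at 0.197 and 0.244 FPKM at E11.5 and at 14.3 and 17.5 FPKM at E13.5 (3.79 ± 0.20, adjusted p = 4.63e-07). Both were close to or below 1 FPKM in the E11.5 libraries and far above it in those of E13.5. Syt4, a synaptotagmin of vesicles, was at 2.48 and 2.38 FPKM at E11.5 and at 35.5 and 46.9 FPKM at E13.5 (3.61 ± 0.21, adjusted p = 6.70e-07). Glutamate receptor subunits Gria1 and Gria2 rose by 2.47 and 1.67, and Snap25 and Syp, proteins of vesicle release, by 1.85 and 1.57. Grik3, a kainate receptor subunit, was at 15.3 and 20.5 FPKM at E11.5 and at 4.69 and 8.45 FPKM at E13.5 and fell (-1.35 ± 0.26, adjusted p = 0.0016), and Syt13 fell by 0.40, a call that was lost in 9 of the 13 alternatives, among them scaling (adjusted p = 0.087), a pseudocount of 0.1 (adjusted p = 0.0549) and leaving out either E11.5 replicate (adjusted p = 0.146 and 0.063). The number of rising genes was 27 without E11.5 replicate 1, 31 without E11.5 replicate 2 or E13.5 replicate 2, and 44 without E13.5 replicate 1.

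Radial glia genes did not move in 1 direction. Of 39 genes 37 were in the table, and 9 rose, 9 fell and 19 did not pass, with a median of -0.13 that is close to that of all genes. Over all coding genes 25.8% rose and 33.1% fell, and neither count of radial glia genes stood above these shares. Pax6, the factor of dorsal radial glia, was at 58.3 and 63.1 FPKM at E11.5 and at 73.8 and 47.8 FPKM at E13.5 (-0.03 ± 0.23, adjusted p = 0.916). Hes5, an effector of Notch signalling, was at 61.9 and 51.2 FPKM at E11.5 and at 113 and 34.7 FPKM at E13.5 (0.15 ± 0.41, adjusted p = 0.754). In both genes the E13.5 replicates lay on either side of the E11.5 libraries and differed most from each other in Hes5. Sox2, a factor of neural progenitors, was at 209.7 and 165 FPKM at E11.5 and at 144 and 90.5 FPKM at E13.5 (-0.70 ± 0.26, adjusted p = 0.0402). Nes, the progenitor intermediate filament, fell by 1.10 (SE 0.21), and Gli3 and Notch3, a factor of dorsal patterning and a Notch receptor, by 1.11 and 1.29. Fabp7, the brain lipid binding protein of radial glia, was at 224 and 196 FPKM at E11.5 and at 479 and 324 FPKM at E13.5 (0.91 ± 0.26, adjusted p = 0.0139). Aldoc, an aldolase that is also an astrocyte lineage marker, was at 4.97 and 9.25 FPKM at E11.5 and at 123 and 84.5 FPKM at E13.5 (3.72 ± 0.27, adjusted p = 2.52e-06). Slc1a3 and Tnc, further genes of maturing radial glia, rose by 0.61 and 0.54. Without E13.5 replicate 1 Hes5 was lower at E13.5 (-0.68, adjusted p = 0.0126), and without E13.5 replicate 2 it was higher (0.99, adjusted p = 0.00442). Hes1, another Notch effector, fell without E13.5 replicate 1 (-0.77, adjusted p = 0.00865). The call for Sox2 was lost without E11.5 replicate 1, E11.5 replicate 2 or E13.5 replicate 2 (adjusted p = 0.282, 0.0635 and 0.198), under scaling (adjusted p = 0.0661) and in both wider fits, and that for Fabp7 without either E11.5 replicate (adjusted p = 0.0772 and 0.154). The balance depended on single libraries, with 9 higher and 17 lower without E13.5 replicate 1 (median -0.51), 11 higher and 4 lower without E13.5 replicate 2 (median 0.25), 4 higher and 3 lower without E11.5 replicate 1, and 4 higher and 6 lower without E11.5 replicate 2. Scaling gave 11 higher and 6 lower.

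Of 26 Notch pathway genes 23 were in the table, and 3 rose, 6 fell and 14 did not pass (median -0.08). Neither count stood above the shares over all coding genes, 25.8% higher and 33.1% lower. Dner, a neuronal Notch ligand, was at 11.2 and 9.79 FPKM at E11.5 and at 30.5 and 35.7 FPKM at E13.5 (1.57 ± 0.19, adjusted p = 7.59e-05), and Numbl and Hes6, an antagonist of Notch and an inhibitor of Hes1, rose by 0.92 and 0.69. Dlk1, a noncanonical ligand, was at 30.8 and 27.3 FPKM at E11.5 and at 1.45 and 1.11 FPKM at E13.5 (-3.72 ± 0.21, adjusted p = 5.55e-07). The ligand gene Jag1 fell by 1.00. Notch1 fell by 0.55, and Rbpj, the nuclear partner of all Notch receptors, had a change of 0.22 and did not pass. The higher count was 9 without E13.5 replicate 2 and the lower count 11 without E13.5 replicate 1, and leaving out E11.5 replicate 1 gave 2 higher and 3 lower and E11.5 replicate 2 gave 2 and 4. The calls for Hes6 and Jag1 were also lost without E11.5 replicate 1 (adjusted p = 0.162 and 0.0704), and that for Hes6 without E11.5 replicate 2 (adjusted p = 0.0894). Under the scaling 6 genes were higher and 4 lower.

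Factors of the early neuroepithelium, the tissue that precedes radial glia, fell. Of 28 genes 20 were in the table, and 1 rose, 16 fell and 3 did not pass (median -1.38). Hmga2 (chr10:120361275-120476469), a chromatin protein of young neural stem cells, was at 161 and 117 FPKM at E11.5 and at 9.60 and 4.69 FPKM at E13.5 (-4.15 ± 0.28, adjusted p = 1.82e-06). The RNA-binding genes Igf2bp1, Igf2bp2 and Igf2bp3 fell by 1.66, 0.99 and 1.22. Fgf15 and Fgf17, fibroblast growth factors of the early forebrain, fell by 3.30 and 3.33, and Crabp1 and Crabp2, which bind retinoic acid, by 1.53 and 3.02. Mycn was the riser of this list, at 30.2 and 27.6 FPKM at E11.5 and at 58.3 and 60.4 FPKM at E13.5 (1.01 ± 0.18, adjusted p = 0.000975). The fall of the list stood with any 1 library left out, with 14 to 18 genes lower.

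Cell cycle genes fell as a group. In DNA replication 46 of 50 genes were in the table, and 33 fell, none rose and 13 did not pass (median -0.77). In mitosis 59 of 61 genes were in the table, and 46 fell, none rose and 13 did not pass (median -0.70). Every change in these lists was below 0, from -0.23 to -1.27. Mki67, the proliferation antigen, was at 91.8 and 89.8 FPKM at E11.5 and at 52.3 and 36.9 FPKM at E13.5 (-1.03 ± 0.21, adjusted p = 0.00229). Mcm2, a subunit of the replicative helicase, was at 124 and 108 FPKM at E11.5 and at 87.2 and 54.7 FPKM at E13.5 (-0.74 ± 0.24, adjusted p = 0.0237). In both genes the E13.5 libraries were below the E11.5 libraries, with replicate 2 the lowest. Uhrf1, which maintains DNA methylation at replication, and Plk1, a mitotic kinase, fell by 1.27 and 1.12. The summed FPKM of the replication list was 2939 and 2588 in the E11.5 libraries and 2038 and 1333 in the E13.5 libraries, and that of the mitosis list was 2837 and 2598 against 2032 and 1352. The call for Mcm2 was lost without E11.5 replicate 1, E11.5 replicate 2 or E13.5 replicate 2 (adjusted p = 0.154, 0.0523 and 0.098), and that for Mki67 was kept. The counts depended on single libraries too. Without E11.5 replicate 1 the lower counts were 13 and 14, without E11.5 replicate 2 they were 23 and 20, without E13.5 replicate 2 they were 21 and 26, and without E13.5 replicate 1 they were 45 and 59. Among regulators of G1 and of cell cycle exit, 26 of 30 genes were in the table, and 6 rose and 14 fell. Ccnd1, the D-type cyclin of early progenitors, was at 182 and 133 FPKM at E11.5 and at 28.9 and 19.3 FPKM at E13.5 (-2.67 ± 0.24, adjusted p = 9.44e-06). Ccnd3 and Ccne1 fell by 1.56 and 1.34, while Ccnd2 had a change of -0.35 and did not pass. Gadd45g, a growth arrest gene of newborn neurons, was at 32.3 and 34.5 FPKM at E11.5 and at 131 and 88.7 FPKM at E13.5 (1.66 ± 0.22, adjusted p = 0.000132), and Btg2, an antiproliferative gene, rose by 0.78. In this list the lower count was 7 without E11.5 replicate 1 and 9 without E11.5 replicate 2, and the higher count was 4 and 3.

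Promoters of some cell cycle genes that fell are shown for the motifs they hold. The shares below are over all listed genes in the table, called or not. Motifs of 2 kinds were searched on both strands in the window from 250 bases before to 50 after each RefSeq start. For replication genes it was the E2F form TTTCCCGC or TTTGGCGC, and for mitosis genes the cell cycle homology region TTTGAA with the CCAAT box. Promoters were found for 38 of the 46 replication genes (82.6%, 47 promoters) and 48 of the 59 mitosis genes (81.4%, 51 promoters). TTTGAA was in 36 mitosis promoters (70.6%) and in 17.9% of all 32851 RefSeq promoters, and CCAAT was in 37 (72.5%) against 37.4%. CCAAT was also in 28 replication promoters (59.6%), so a raised share of it was not particular to the mitosis list. Among replication promoters TTTGGCGC was in 8 (17%) and TTTCCCGC in 6 (12.8%), against 0.514% and 1.07% of all promoters. These shares describe letters in a window and not binding. The windows printed are the 250 bases before the start in the direction of transcription, 5′ to 3′, for the minus strand at chr1:128359706-128359955 (Mcm6), chr7:135716380-135716629 (Mki67), chr11:99024190-99024439 (Top2a) and chr9:70421555-70421804 (Ccnb2), all in GRCm38.p6. Mcm6 was chosen after its matches were seen, for its 2 copies of TTTGGCGC, which are in capitals, and the others for a TTTGAA match, with every copy of both of their motifs, on either strand, in capitals.
Mcm6: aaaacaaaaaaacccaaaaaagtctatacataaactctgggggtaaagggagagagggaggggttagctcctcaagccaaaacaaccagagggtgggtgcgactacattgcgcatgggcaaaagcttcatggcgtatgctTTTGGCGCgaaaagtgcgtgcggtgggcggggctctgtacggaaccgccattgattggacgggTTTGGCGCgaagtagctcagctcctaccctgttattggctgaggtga
Mki67: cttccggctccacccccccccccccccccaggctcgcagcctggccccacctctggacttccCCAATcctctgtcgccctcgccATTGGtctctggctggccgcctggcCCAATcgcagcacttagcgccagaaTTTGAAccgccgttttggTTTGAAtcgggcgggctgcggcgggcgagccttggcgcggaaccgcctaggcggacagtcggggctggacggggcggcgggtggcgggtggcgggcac
Top2a: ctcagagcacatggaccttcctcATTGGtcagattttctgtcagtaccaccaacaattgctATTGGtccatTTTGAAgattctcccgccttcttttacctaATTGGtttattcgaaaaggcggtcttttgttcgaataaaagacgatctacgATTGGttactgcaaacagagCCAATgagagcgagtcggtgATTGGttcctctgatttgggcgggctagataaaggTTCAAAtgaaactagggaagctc
Ccnb2: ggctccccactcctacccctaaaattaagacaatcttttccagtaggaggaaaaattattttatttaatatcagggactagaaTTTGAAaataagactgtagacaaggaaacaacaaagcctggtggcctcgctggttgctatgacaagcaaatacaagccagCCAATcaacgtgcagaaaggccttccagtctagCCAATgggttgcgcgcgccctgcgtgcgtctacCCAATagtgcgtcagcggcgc
In Mki67 2 copies of TTTGAA begin 116 and 98 bases before the start. Top2a, the topoisomerase of dividing cells, holds 6 CCAAT matches, and Ccnb2, a mitotic cyclin, holds 3. These genes changed by -0.80 (Mcm6), -1.03 (Mki67), -0.97 (Top2a) and -0.62 (Ccnb2).

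**Figure D3:**
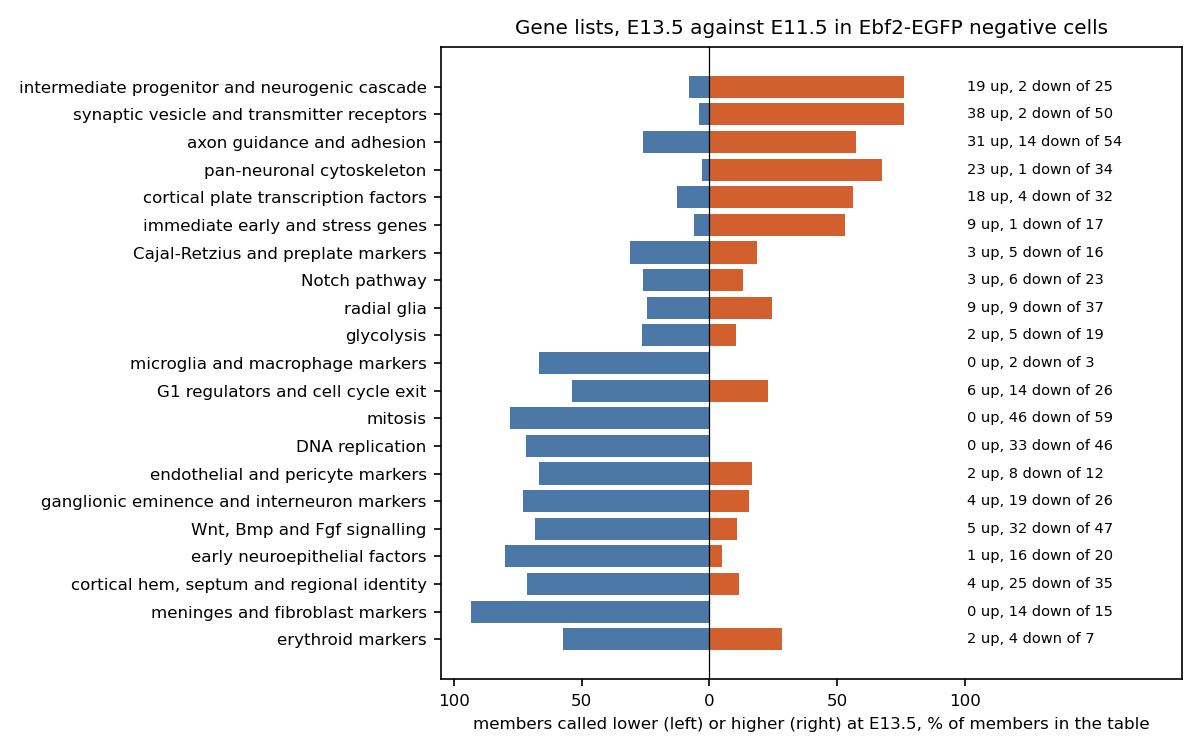
Each bar gives the share of a list's members in the table that were called higher (right, orange) or lower (left, blue) at E13.5, in percent, with the counts at the right. Lists of neurogenesis, synapse and cytoskeleton lie to the right, those of replication, mitosis, early neuroepithelium and regional signalling to the left, and radial glia has 9 on each side.

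Genes of Wnt, Bmp and Fgf signalling mostly fell. Of 51 listed genes 47 were in the table, and 5 rose, 32 fell and 10 did not pass (median -1.36). Wnt8b, a Wnt ligand of the cortical hem, was at 22.3 and 22.7 FPKM at E11.5 and at 0.933 and 0.121 FPKM at E13.5 (-3.996 ± 0.26, adjusted p = 1.61e-06). Rspo1 and Rspo2, secreted amplifiers of Wnt signalling, fell by 4.04 and 3.89, and Rspo3 by 2.33. Wnt3a, the hem Wnt ligand that is needed for the hippocampus, fell by 2.10, and Bmp4 and Bmp7, ligands of the dorsal midline, by 2.04 and 2.71. Axin2 and Lef1, targets of Wnt signalling, fell by 1.36 and 1.68, and Etv4, Dusp6 and Spry1, targets of Fgf signalling, by 1.65, 1.44 and 1.77. Wnt7b, a ligand of cortical plate neurons, was at 28.6 and 22.9 FPKM at E11.5 and at 56.3 and 75.5 FPKM at E13.5 and rose (1.32 ± 0.21, adjusted p = 0.000481). Id2 and Fzd1 rose by 1.42 and 1.01. Without E11.5 replicate 1 the higher count was 3.

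Of 37 genes of cortical hem, septum and regional identity 35 were in the table, and 4 rose and 25 fell (median -1.46). Otx2, a factor of the choroid plexus and midline, was at 26.7 and 29.4 FPKM at E11.5 and at 0.695 and 0.0839 FPKM at E13.5 (-4.42 ± 0.24, adjusted p = 5.55e-07). Ttr, a choroid plexus product, was at 24.5 and 43.3 FPKM at E11.5 and at 2.73 and 0.125 FPKM at E13.5 (-4.03 ± 0.46, adjusted p = 4.53e-05). Both were low in the E13.5 libraries, and lowest in replicate 2. Zic1 and Zic4, factors of the septum and dorsal midline, fell by 3.74 and 3.13, and Lmx1a, a factor of the hem and roof plate, by 2.29. Six3 and Fezf1, factors of the rostral forebrain, fell by 2.77 and 3.11. Tcf4, an E protein that partners with proneural factors, was at 45.1 and 49.6 FPKM at E11.5 and at 114 and 134 FPKM at E13.5 and rose (1.36 ± 0.20, adjusted p = 0.000232). Nr2f1 and Lhx2, factors of cortical area and cortical fate, had changes of 0.37 and 0.12 and did not pass. The higher count was 2 without either E11.5 replicate. Markers of meninges, of ventral telencephalon and of primitive blood fell at the same time, and their part in these falls was not tested.

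Markers of the ganglionic eminences and of interneurons fell in most cases. All 26 were in the table, and 4 rose, 19 fell and 3 did not pass (median -1.36), and the summed FPKM of the list was 399 and 477 at E11.5 and 285 and 229 at E13.5. Nkx2-1, the factor of the medial ganglionic eminence, was at 26.4 and 33.9 FPKM at E11.5 and at 0.238 and 0.165 FPKM at E13.5 (-4.69 ± 0.21, adjusted p = 2.20e-07). Dlx2, a factor of all ganglionic eminences and their interneurons, was at 59.5 and 64.7 FPKM at E11.5 and at 12.8 and 12.2 FPKM at E13.5 (-2.22 ± 0.18, adjusted p = 5.31e-06). Lhx8 and Isl1, factors of ventral projection and cholinergic neurons, fell by 3.995 and 2.96. Nkx2-1 and Lhx8 were under 0.3 FPKM at E13.5, whereas Dlx2 remained above 12 FPKM in both libraries. Sst, the somatostatin gene of a class of interneurons, was at 10.3 and 17.5 FPKM at E11.5 and at 107 and 76.7 FPKM at E13.5 and rose (2.66 ± 0.26, adjusted p = 1.57e-05). Npy and Maf, which mark maturing interneurons, rose by 0.92 and 0.48, and Lhx6, the factor of migrating medial interneurons, fell by 0.68. The call for Npy was lost without E11.5 replicate 1 (adjusted p = 0.27) or E13.5 replicate 1 (adjusted p = 0.126). Gad1 had a change of -0.37 and did not pass. Without E11.5 replicate 1 the higher count of the list was 2.

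Genes of non-neural cells moved with stage too. For meninges and fibroblasts 15 of 20 markers were in the table, and 14 fell and none rose, with a change of 0.26 for Cxcl12 that did not pass. Their summed level was 511 to 554 FPKM at E11.5 and 100.2 to 142 FPKM at E13.5, and 1 marker was at 0 in both E13.5 libraries. Col1a2 and Col3a1, fibrillar collagens, were at 34.0 and 25.5 FPKM at E11.5 and at 0.654 and 0.312 FPKM at E13.5 and at 50.7 and 42.8 FPKM at E11.5 and at 1.71 and 1.12 FPKM at E13.5 (-4.37 ± 0.23 and -4.31 ± 0.21, adjusted p = 4.63e-07 and 3.29e-07). Sulf1, a heparan sulfatase made by mesenchyme and by the ventral neural tube, fell by 4.28. Of 22 erythroid markers 7 were in the table, with 2 higher and 4 lower, and their sum was 1347 and 2884 FPKM at E11.5 and 572 and 461 FPKM at E13.5. The embryonic globin genes Hba-x and Hbb-y were at 464 and 1007 FPKM at E11.5 and at 1.11 and 1.68 FPKM at E13.5 and at 737 and 1589 FPKM at E11.5 and at 4.07 and 3.31 FPKM at E13.5, respectively. With Hbb-bh1, another embryonic globin gene, they had the 3 largest falls of the table, -8.17 ± 0.31, -7.86 ± 0.31 and -6.52 ± 0.23 (adjusted p = 5.81e-08, 6.38e-08 and 2.81e-08). All 3 were higher in E11.5 replicate 2 than in replicate 1. The adult globin genes Hbb-b2 and Hbb-b1 rose, by 2.84 (SE 0.32) and 3.99 (SE 1.19), but these are near-identical copies between which fragments may be divided, and Hbb-b1 was listed at 0.00091 and 42.2 FPKM in the 2 E11.5 libraries. The call for Hbb-b1 was lost without either E13.5 replicate (adjusted p = 0.0964 and 0.0872). Of 30 endothelial and pericyte markers 12 were in the table, with 2 higher and 8 lower, and their summed level was 73.0 to 86.9 FPKM at E11.5 and 41.5 to 43.7 FPKM at E13.5. Of 25 microglia and macrophage markers 3 were in the table, with summed levels of 5.98 to 7.58 and 1.48 to 2.10 FPKM. No marker of the erythroid, endothelial or microglial lists that the table holds was at 0 in both libraries of a stage. The part of these cells in the other changes was not tested.

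Genes of Cajal-Retzius and preplate neurons, which the reporter labels, had similar summed levels at both stages in the negative cells. Of 18 genes 16 were in the table, and 3 rose, 5 fell and 8 did not pass (median 0.02), and that level was 29.1 and 30.3 FPKM at E11.5 and 29.4 and 31.1 FPKM at E13.5. Neither count stood above the shares over all coding genes, which were 25.8% higher and 33.1% lower. Reln, the extracellular protein secreted by Cajal-Retzius neurons, was at 2.98 and 2.79 FPKM at E11.5 and at 2.77 and 4.22 FPKM at E13.5 (0.19 ± 0.21, adjusted p = 0.446). In the positive cells Reln was at 75.9 to 187 FPKM, above every negative library. Nhlh2 rose by 1.51 and Lhx5 fell by 2.19 in the negative cells. Because the reporter fades from subplate neurons, the gate may not have removed preplate neurons alike at both stages, and the part of such cells in the E13.5 values was not tested.

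**Figure D4:**
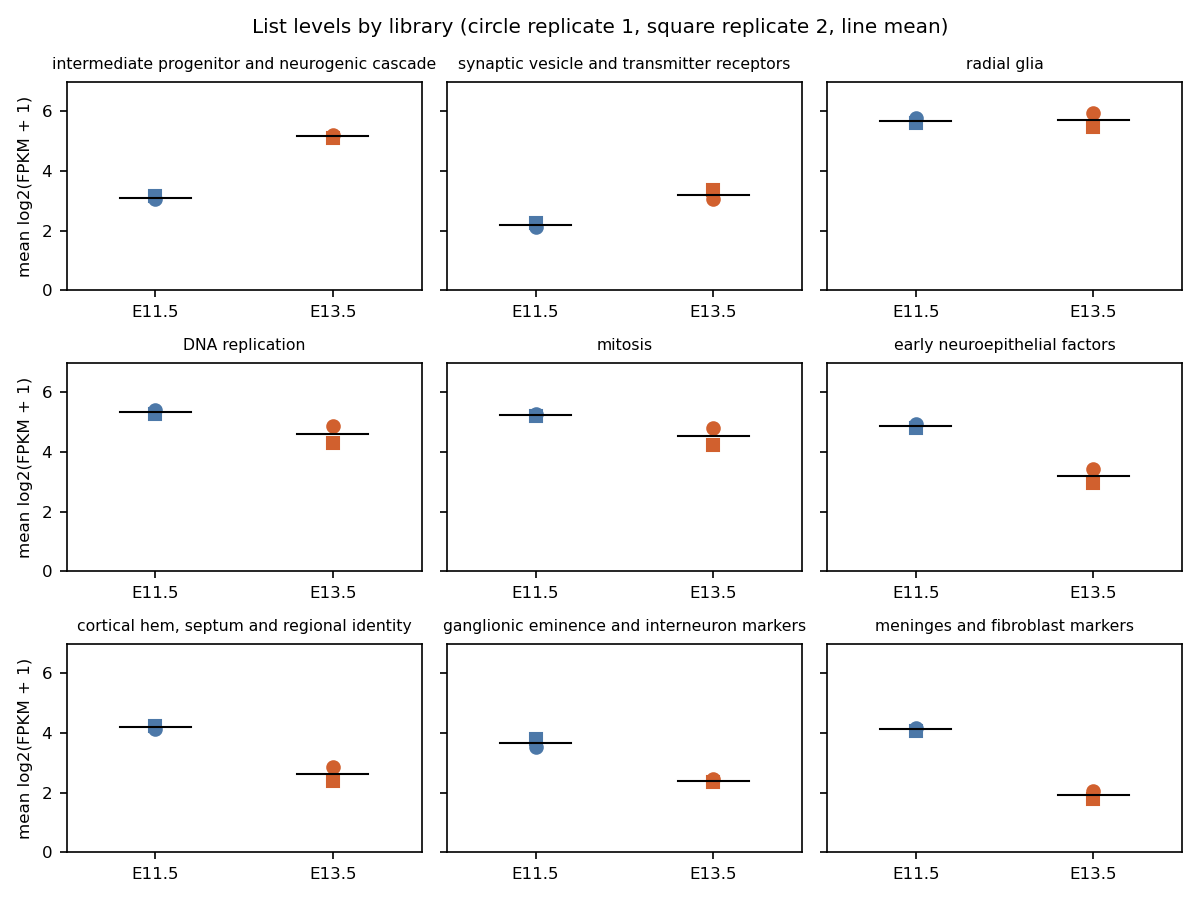
Each panel gives the mean of log2(FPKM + 1) over the members of 1 gene list in each Ebf2-EGFP negative library, with the line at the mean of the 2 libraries of a stage. For replication and mitosis E13.5 replicate 2 sits below replicate 1 (4.32 against 4.86 and 4.24 against 4.81), and for synaptic genes above it (3.37 against 3.05).

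Among lncRNAs 60 of 200 transcripts passed (30%), with 36 higher (18%) and 24 lower (12%). The transcript with the largest rise, RP23-326H18.1 (chr5:110978665-110979217), was at 1.95 and 1.30 FPKM at E11.5 and at 19.5 and 35.6 FPKM at E13.5 (3.40 ± 0.35, adjusted p = 0.00453). It lies on the same strand within Ttc28, a coding gene that rose by 1.80, and the GENCODE M21 annotation (GRCm38) lists it as TEC, a class that still awaits experimental evidence. Strand was not stated for these libraries, so reads of overlapping genes cannot be told apart. 9630028B13Rik, A930024E05Rik and Gm29260 rose by 2.64, 2.59 and 2.56. Of these A930024E05Rik lies antisense to Kdm2b, 9630028B13Rik lies 997 bases from Eprs, and Gm29260 has Pou3f3 as its nearest coding gene at a distance of 756208 bases.

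Among the falling lncRNAs, H19 (chr7:142575529-142578143), an imprinted transcript of embryonic tissue, was at 92.8 and 81.0 FPKM at E11.5 and at 13.3 and 10.02 FPKM at E13.5 (-2.80 ± 0.28, adjusted p = 0.00453). AI606473 (chr3:154330821-154334254), which begins 162 bases from Lhx8, was at 3.84 and 4.70 FPKM at E11.5 and at 0 and 0.0278 FPKM at E13.5 (-2.37 ± 0.18, adjusted p = 0.00355). The Six3os1 transcript at chr17:85611238-85618385, opposite to Six3, fell by 2.37 and Gm29478, 15126 bases from Zic4, by 2.34. Gm28872, a transcript of 1 exon, was at 12.4 and 6.10 FPKM at E11.5 and listed at 0 in both E13.5 libraries. Of the 36 rising transcripts 35 were located in the annotation, and the nearest coding gene rose in 21, fell in 1, did not pass in 3 and was outside the table in the rest. Of the 24 falling transcripts the nearest coding gene rose in none, fell in 17 and did not pass in 1. Among all located transcripts, 19 rising and 11 falling ones overlapped their nearest coding gene, whether or not that gene was in the table. Transcripts that did not pass had 14 rising and 20 falling neighbours among 74 in the table. The lncRNA counts depended on single libraries, with 0 higher (limma, 39 higher at an unadjusted p under 0.05) and 6 lower without E11.5 replicate 1, 3 and 8 without E11.5 replicate 2, 21 and 9 without E13.5 replicate 1, and 20 and 9 without E13.5 replicate 2. The 5 transcripts with the largest rises lost their calls without E11.5 replicate 1, as H19 did (-2.71, adjusted p = 0.0624), and the other 4 named falling transcripts kept theirs without any 1 library.

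The change from E11.5 to E13.5 was compared with that of the Ebf2-EGFP positive cells in a fit of 8 libraries. The difference between the changes passed in 1913 of 4859 genes (39.4%), 1049 with a change that was higher in negative cells and 864 with one that was lower, a split that scaling turned to 909 and 985. The study listed these genes because they differed between the same populations. That choice favours such differences, so the share describes this list and not genes in general. Of the 27 neurogenesis genes 16 passed. Eomes was at 142 and 139 FPKM in the positive cells at E11.5 and at 54.6 and 38.7 FPKM at E13.5, so it fell there while it rose in negative cells, and the changes differed by 4.87 ± 0.28 (adjusted p = 3.41e-06). Slc17a6 was at 49.3 and 58.0 FPKM and then at 19.1 and 13.6 FPKM in positive cells, again opposite to the negative cells (4.99 ± 0.29, adjusted p = 3.41e-06). Tbr1 was high in positive cells at both stages, at 268 and 268 FPKM and at 225 and 228 FPKM, and the changes differed by 4.73 ± 0.21 (adjusted p = 1.43e-06). At E13.5 the negative cells thus had more Eomes than the positive cells and less Tbr1. Neurod6 rose in both populations, from 69.0 and 97.0 to 472 and 436 FPKM in positive cells, and by more in negative cells (4.63 ± 0.30, adjusted p = 5.85e-06). Fezf2 had the larger rise in positive cells, from 28.9 and 30.5 to 92.3 and 103.0 FPKM (difference -1.09 ± 0.19, adjusted p = 0.00149). Pax6 was among the 16 genes, and its call was lost in the fit of all 12 libraries (adjusted p = 0.0597), as that of Fezf2 was (adjusted p = 0.146), and when any of 6 of the 8 libraries was left out. With a pseudocount of 0.1 the calls of Hmga2 (-0.81, adjusted p = 0.177) and Dlx2 (-0.17, adjusted p = 0.638) were lost. For Bcl11b, Ccnd1, Mki67 and Mcm2 the difference of the changes did not pass, with values from -0.03 for Bcl11b to 0.73 for Mki67. Ccnd1 fell by 2.67 in negative and by 2.72 in positive cells, with a difference of 0.05 ± 0.36. Without E13.5 negative replicate 2 the differences for Mki67 and Mcm2 passed (0.98 and 0.88, adjusted p = 0.0286 and 0.0275). The replicate number as a block also changed calls, and Mki67 (0.73), Fabp7 (-0.65) and Reln (-0.81) then passed (adjusted p = 0.0432, 0.0263 and 0.0205). Negative and positive libraries of a stage with the same number deviated together (r = 0.431 across genes at E11.5 and 0.534 at E13.5). With that pairing as a replicate block within each stage, an alternative chosen after seeing the data, 2928 differences passed, and Mki67, Mcm2, Hes1, Fabp7 and Reln were among them (adjusted p = 0.000773, 0.00586, 0.0111, 0.00587 and 0.000326), while Bcl11b and Ccnd1 did not pass. Whether libraries of 1 number came from the same sort is not given in the sources used here.

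**Figure D5:**
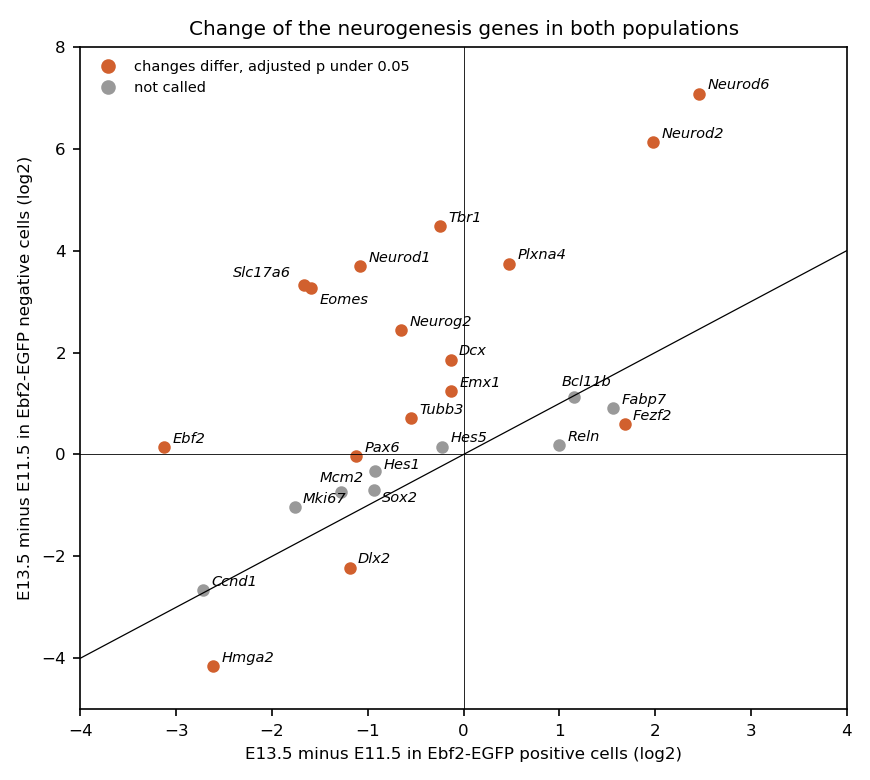
For each of 25 of the 27 neurogenesis genes the change from E11.5 to E13.5 (log2 scale) in Ebf2-EGFP positive cells is on the x axis and that in negative cells on the y axis, with a diagonal line of equal change and orange for genes whose changes differed. Eomes, Neurod1, Slc17a6 and Neurog2 lie at the upper left, and Ccnd1 and Bcl11b close to the line.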

How the data were processed

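Ebf2-EGFP negative cells of the mouse cortex were analysed at E11.5 and E13.5, 2 libraries each. The authors aligned reads to mm10 with TopHat 2.0.8b and deposited FPKM from Cufflinks 2.2.0, scaled by length and mapped fragments, for features they reported as differential. Their fold, p-value and q-value columns, which compare the populations, were not used. Columns were matched to libraries by label, and all 12 per table were matched.

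Values were used as deposited on the log2(FPKM + 1) scale and fitted with limma 3.58.1 in R 4.3.3 (variance trend, 4 libraries as 2 groups, no covariates, no filter). Two-sided p-values received a Benjamini-Hochberg adjustment over all features of a table. Simulated data with known changes were used to test the script. With 2 libraries against 2 no exact permutation p can fall under 0.333, so no test on single scores was made. The populations were compared by the difference of their changes in a fit of 8 libraries.

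The genes named were the neurogenesis genes, the 10 genes with the largest change in each direction, up to 3 called members of each other list in each direction and the 5 lncRNAs with the largest change in each direction, all of the called ones with libraries that did not overlap between stages. Other members are given by their change alone and were chosen after their values were seen. The neurogenesis genes, lists and members were chosen with earlier results of these data known. Results for some listed genes are not reported here. Positions came from GENCODE M21 (GRCm38) and promoters from RefSeq (GRCm38.p6), matched by symbol or synonym.

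Alternatives were a pseudocount of 0.1, median-of-ratios scaling, variances moderated without a trend, only features whose mean FPKM reached 1, fits of all 12 or of the 6 negative libraries, the replicate number as a block (also within each stage for the populations, added after seeing the data), each library left out, a threshold of 0.01 and a 2-fold change beside the p-value. The E15.5 libraries entered only those wider fits.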

Additional observations from a re-analysis of the deposited data

Results flagged for a closer look

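For 16 of the 27 neurogenesis genes the change from E11.5 to E13.5 differed between the populations by the limma test of the difference itself (adjusted p under 0.05, 2 libraries in each of 4 groups). Values are the change in Ebf2-EGFP negative cells minus that in Ebf2-EGFP positive cells on the log2 scale. It was 4.73 for Tbr1, 4.78 for Neurod1, 4.87 for Eomes, 3.09 for Neurog2, 4.15 for Neurod2 and 4.63 for Neurod6. For the axon and transporter genes Plxna4 and Slc17a6 it was 3.27 and 4.99, and for the pan-neuronal genes Dcx and Tubb3 it was 1.997 and 1.26. Pax6 and Emx1, factors of dorsal progenitors, had 1.09 and 1.37. Ebf2, which fell by 3.13 in positive cells and overlapped between stages in negative cells, had 3.27. The cells were sorted by the Ebf2 reporter, so the value for Ebf2 is not independent of the gate. The value was below 0 for Fezf2 (-1.09), Hmga2 (-1.54) and Dlx2 (-1.03). The calls of Pax6 and Fezf2 were lost in the fit of all 12 libraries, and that of Pax6 also depended on single libraries. Those of Hmga2 and Dlx2 were lost with a pseudocount of 0.1.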

How the results depend on the processing

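No coding gene or lncRNA called here changed direction under any alternative. Leaving out 1 library gave 1747 to 3368 called coding genes, 809 to 1410 higher and 938 to 1958 lower. It gave 6 to 30 called lncRNAs, 0 to 21 higher and 6 to 9 lower. At a threshold of 0.01 there were 1867 coding genes (1005 lower) and 22 lncRNAs (14 higher, 8 lower), and with a 2-fold change 1100 coding genes (537 higher, 563 lower) and 22 lncRNAs higher. Same-numbered libraries of the stages came from different embryos, so the numbers pair no embryos. Whether such libraries shared a batch is not given in the sources used here. Their deviations correlated at 0.168 for genes and -0.0658 for lncRNAs. With the replicate block 3172 coding genes, 42 lncRNAs (14 lower) and 2274 differences of change were called. With a replicate block within each stage, shared by the negative and positive libraries of a number and chosen after seeing the data, 2928 differences were called (1633 higher). Values that were not called changed sign, and Hes5 then passed in opposite directions. Under scaling Pax6 was 0.143, and with 1 library left out the ranges were -0.338 to 0.278 for Pax6, -0.684 to 0.991 for Hes5, -0.77 to 0.13 for Hes1, -0.006 to 0.299 for Ebf2 and -0.045 to 0.427 for Reln. Differences of change between the populations that did not pass also changed sign, with Bcl11b at 0.008 under the pseudocount of 0.1 and Ccnd1 at -0.002 under scaling, and with ranges of -0.325 to 0.273 (Bcl11b), -0.188 to 0.67 (Sox2), -0.463 to 1.212 (Hes5) and -0.245 to 0.342 (Ccnd1) when 1 library was left out. The cause was not tested. Depth is unknown from FPKM, and 2 libraries a stage limit the precision.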

Other observations

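Genes of glycolysis and the immediate early response were also measured. Of 24 glycolysis genes 19 were in the table, and 2 rose, 5 fell and 12 did not pass (median -0.49 against -0.14 over all genes). Over all coding genes 25.8% rose and 33.1% fell, and neither glycolysis count stood above these shares. The lower count rested on single libraries, with 1 without E11.5 replicate 1, 3 without E11.5 replicate 2 or E13.5 replicate 2 and 12 without E13.5 replicate 1, and it was 3 under scaling, 9 with a mean FPKM of at least 1, 11 with the replicate block and 12 in the fit of all 12 libraries. Slc16a3, a lactate exporter, and the glucose transporter gene Slc2a1 fell by 1.44 and 0.74, and Hk2, a hexokinase, by 0.77, with the calls of Slc2a1 and Hk2 lost without E11.5 replicate 1 (adjusted p = 0.143 and 0.229). Aldoc rose by 3.72 and is also counted among radial glia genes. Of 26 immediate early and stress genes 17 were in the table, and 9 rose and 1 fell, against 5 and 3 without E11.5 replicate 2, 7 and 2 without E13.5 replicate 2 and 11 and 1 without E13.5 replicate 1. Fos was at 31.2 and 26.8 FPKM at E11.5 and at 71.0 and 223 FPKM at E13.5 (2.09 ± 0.40, adjusted p = 0.0015), and Jun rose by 1.41 and Ier5 by 1.504. Fos was highest in E13.5 replicate 2, the library that also lay furthest from the E11.5 libraries, and the part of cell dissociation in these values was not tested.

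Genes that rose spanned longer stretches of the genome in more cases. Of the rising genes with a position 28.4% were over 100 kb long in GENCODE M21, against 20.8% of the falling genes and 23.3% of all genes in the table, while the median spans were 33.2, 34.2 and 32.2 kb.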
